A study of Mus musculus with 10 samples.

Results

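Genes of the interferon response and of nucleic acid sensing were compared between gastrocnemius muscle of D257A mice and that of WT mice. The 38 genes are sensors and adaptors, transcription factors and interferon-induced genes, and every probe set that names 1 of them alone was taken as a member. This gave 63 probe sets for 36 genes, of 45101 probe sets on the array and 18194 genes that a probe set names alone. Of these, 46 probe sets for 31 genes were bright enough to be tested, and the other 17 were too dim. All probe sets of Dhx58, Zbp1, Stat2, Mx1 and Mx2 were among the dim ones, and Isg15 and Ifi44 had no probe set of their own. D257A mice are homozygous for PolgD257A, a knock-in form of the mitochondrial DNA polymerase gamma without proofreading that every cell carries, and WT mice are Polg+/+. Both groups were 5 males, 13 months old, with 1 array per mouse. They came from a mixed strain that had been crossed back to C57Bl/6J for a few generations. The question was whether mutation of mitochondrial DNA (mtDNA) comes with an interferon signature.

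Cells detect stray nucleic acids with sensors such as Ifih1 and Ddx58 for double-stranded RNA and Zbp1 for left-handed helices, and DNA in the cytosol through Sting1. The adaptors Mavs and Sting1 call on the kinase Tbk1, which activates the factors Irf3 and Irf7 and so the genes of type I interferons. Interferon then acts through Stat2 and Irf9 on a shared element of many promoters, the interferon-stimulated response element (ISRE), and a large set of induced genes follows. Mitochondrial DNA or RNA that leaks into the cytosol is a known trigger of this pathway.

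Promoter windows from RefSeq (GRCm38.p6, 250 bases before to 50 bases after the gene start) were found for 29 of the 38 genes. The ISRE core, read as GAAANNGAAA on either strand with overlaps counted, lay in a window of 14 of these 29 genes (48.3%) and of 3.99% of all 27025 genes of the table. The core TTCNNNGAA of the interferon-gamma activated site lay in windows of 7 of the 29 genes (24.1%) and of 9.55% of all genes. The 60-base stretches below, all upstream of the start, show how members of this set carry the element, with each ISRE core in capitals, and they are given for genes whose values are described further on. On its printed strand the core of Irgm1 reads GAAANNGAAA, in a pair of overlapping copies, and the cores of the others read as the reverse complement.
Ifit1, chr19:34640769-34640828, plus strand: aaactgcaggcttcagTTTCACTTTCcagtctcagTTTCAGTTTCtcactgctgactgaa
Ifit3, chr19:34583372-34583431, plus strand: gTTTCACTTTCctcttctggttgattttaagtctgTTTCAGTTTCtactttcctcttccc
Rsad2, chr12:26456548-26456607, minus strand: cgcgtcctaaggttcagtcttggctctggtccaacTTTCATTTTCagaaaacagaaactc
Irgm1, chr11:48871421-48871480, minus strand: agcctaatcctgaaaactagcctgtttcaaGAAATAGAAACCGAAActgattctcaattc
Gbp2, chr3:142620569-142620628, plus strand: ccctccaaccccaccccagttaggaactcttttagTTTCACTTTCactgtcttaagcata
Ifit1 and Ifit3 hold 2 separate copies each, and Rsad2 and Gbp2 hold 1.

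The arrays gave 1 signal per probe set on a linear scale. Trimmed means of the deposited columns ran from 93.4 to 129, and each array was multiplied to a trimmed mean of 500 before log2 was taken, so a scaled signal is comparable between mice for the same probe set. Skeletal muscle markers were bright in every mouse, at a mean log2 signal of 15.5 to 15.9 over Acta1, Ckm, Tnnt3, Myh4, Actn3 and Mb, while 4 of 7 inner ear markers were too dim to test (a protocol line names cochlea as the source of RNA). WT mouse 1-13M differed from the other WT mice on many probe sets, and each member gene whose difference by its brightest probe set grew or shrank by over 1.5 times without it is given both ways. The arrays measure whole muscle, so fewer cells of a type and less RNA per cell cannot be told apart.

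No member differed between D257A and WT mice after correction for multiple testing. By limma with Benjamini-Hochberg adjustment over 22518 probe sets, 0 of the 46 member probe sets were called at an adjusted p under 0.05, where 7.38% of all tested probe sets were called. By the methods' t-test, 0 of 46 were called as well, where 4.59% of all tested probe sets were called. By that test 6 of 46 had an unadjusted p under 0.05, and the share of all probe sets at that level was not taken. By limma, 5 of 46 (10.9%) were at an unadjusted p under 0.05, all higher in D257A mice. Each was from a different gene: Ifitm3, Rsad2, Xaf1, Ifit2 and Ifit1. Of all tested probe sets, 10.7% were higher at that level, so the share that was higher was near the background. In either direction, 23.6% of all tested probe sets reached that level, beside 10.9% of the member probe sets. In 0 of 46 member probe sets did every D257A mouse lie above every WT mouse, against 3.94% of all tested probe sets.

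The differences were small and mostly positive. Of the 31 genes, each represented by its brightest probe set, 24 had a positive log2 difference (D257A minus WT) and 7 a negative one. The median was 0.19 over these genes and 0.16 over the 46 probe sets (32 positive, 69.6%), beside -0.03 over all tested probe sets, of which 46.3% were positive. The median over the 46 probe sets was 0.08 with no further scaling of the arrays (29 positive), 0.29 with each array centred on its median (38 positive), 0.25 without WT mouse 1-13M and 0.10 without D257A mouse 2-17M. Sensors and adaptors had a median of -0.08 (2 of 5 positive), factors -0.03 (2 of 4 positive) and induced genes 0.25 (20 of 22 positive). The 95% interval of the difference lay below a log2 value of 1, a 2-fold rise, for 28 of 31 genes, and the exceptions were Ifit1, Ifitm1 and Oasl2. Over the genes with an ISRE core in a promoter window the median was 0.19 (12 genes), and over those with a window but no core it was 0.20 (14 genes).

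**Figure D1:**
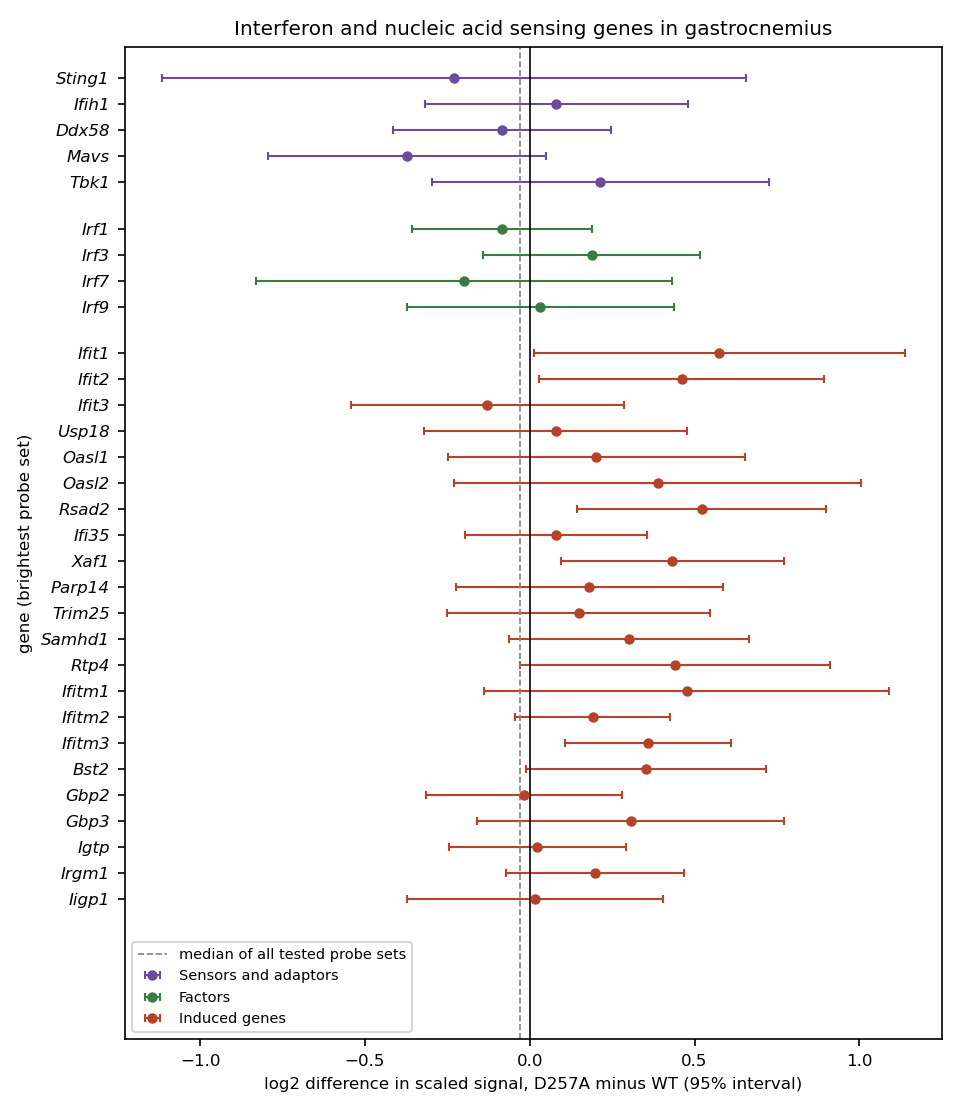
Log2 difference in scaled signal (D257A minus WT, horizontal axis) of the 31 tested genes, each by its brightest probe set, with limma's 95% interval; colours give the role and the dashed line is the median of all tested probe sets at -0.03. Sensors and factors scatter about 0, and 20 of 22 induced genes lie to the right of it with intervals that mostly reach 0.

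**Figure D2:**
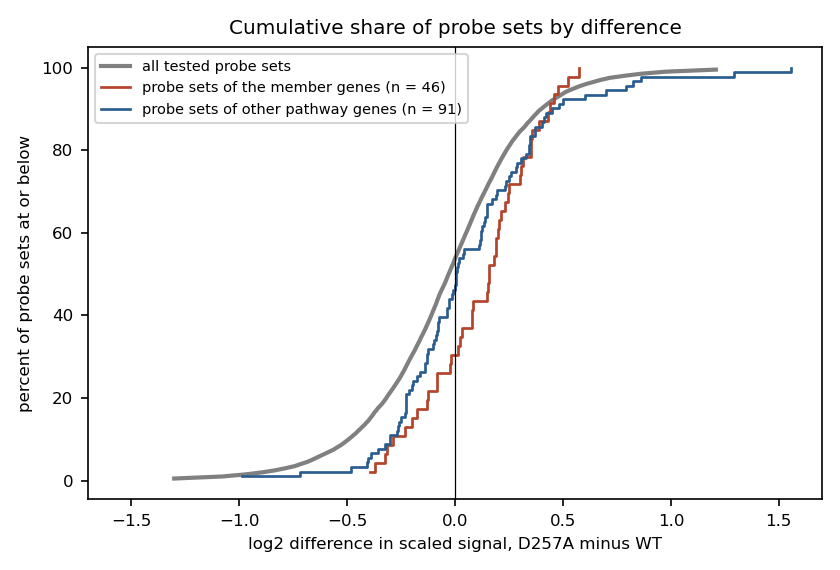
Percent of probe sets (vertical axis) at or below a given log2 difference, D257A minus WT (horizontal axis), for the 46 member probe sets, 91 probe sets of other pathway genes and all 22518 tested. The member curve crosses 50% at 0.16 and ends at 0.57, inside the range that all probe sets span.

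Among sensors and adaptors, no gene stood apart by genotype. Sting1 (Tmem173), the adaptor of cytosolic DNA sensing, had scaled signals of 151, 32.2, 102, 199 and 77.8 in D257A mice 2-17M, 2-21M, 2-25M, 2-27M and 2-30M, and of 70.9, 127, 136, 99.7 and 140 in WT mice 1-12M, 1-13M, 2-3M, 2-32M and 3-18M. The D257A mice spanned both the lowest and the highest of the 10 values. Its log2 difference was -0.23 (standard error 0.41, adjusted p = 0.784), with an interval from -1.12 to 0.66, the widest among the sensors. Ifih1, the sensor of long double-stranded RNA, had scaled signals of 430, 281, 364, 258 and 286 in D257A mice, beside 264, 286, 291, 260 and 427 in WT mice, in the same order. One mouse of each genotype reached about the same highest value, and the difference was 0.08 (interval -0.32 to 0.48, adjusted p = 0.834). Ddx58 (Rigi), which detects short RNA ends, had a difference of -0.08 (interval -0.42 to 0.25, adjusted p = 0.789), and -0.04 without WT mouse 1-13M.

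Mavs, the adaptor on the outer mitochondrial membrane, had the largest negative difference among the 31 genes. Its scaled signal was 1351 ± 304 in D257A mice, beside 1749 ± 427 in WT mice (SD, n = 5 each), a log2 difference of -0.37 (interval -0.79 to 0.05, adjusted p = 0.276). A second probe set of Mavs gave -0.18 (adjusted p = 0.347). Tbk1, the kinase that both adaptors activate, had a difference of 0.21 (interval -0.30 to 0.72, adjusted p = 0.633). Its scaled signal was 2514 in WT mouse 1-13M, above every other mouse, and 968 to 1306 in the other 4 WT mice. D257A mice lay between 1222 and 2272. Without WT mouse 1-13M the difference of Tbk1 was 0.45 (adjusted p = 0.0844).

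The transcription factors showed no shift in one direction. Irf7, the factor that amplifies interferon production and is itself interferon-induced, had scaled signals of 177, 145, 140, 175 and 65.3 in D257A mice, beside 108, 245, 146, 160 and 131 in WT mice. WT mouse 1-13M was the highest and D257A mouse 2-30M the lowest of the 10. The difference was -0.20 (standard error 0.29, interval -0.83 to 0.43, adjusted p = 0.735), and without WT mouse 1-13M it was -0.03 (adjusted p = 0.964). Irf1, a factor induced by interferon gamma, differed by -0.08 (interval -0.36 to 0.19, adjusted p = 0.743), and Irf9, the DNA-binding partner of Stat2, by 0.03 (interval -0.37 to 0.44, adjusted p = 0.942) or, without 1-13M, by 0.08. Irf3, which Tbk1 phosphorylates, differed by 0.19 (interval -0.14 to 0.52, adjusted p = 0.495), and its other tested probe sets gave 0.15 and 0.16. Without 1-13M the difference of Irf3 was 0.30 (adjusted p = 0.125).

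The IFIT family, which binds foreign RNA, had differences of both signs. Promoter stretches of Ifit1 and Ifit3 are shown above, while the windows of Ifit2 held no ISRE core. Ifit1 had scaled signals of 136, 80.2, 183, 176 and 144 in D257A mice, beside 82.5, 106, 125, 93.0 and 68.1 in WT mice. All D257A mice but 2-21M lay above every WT mouse, and 2-21M lay below 4 of the 5. The difference of Ifit1 was 0.57 (standard error 0.26, interval 0.01 to 1.14, adjusted p = 0.203), the largest among the 31 genes. Ifit2 had scaled signals of 286, 183, 322, 246 and 291 in D257A mice, beside 213, 233, 182, 131 and 207 in WT mice. Again 4 D257A mice exceeded every WT mouse and 2-21M did not, with a difference of 0.46 (standard error 0.20, interval 0.03 to 0.89, adjusted p = 0.183). Ifit3, the partner that stabilizes the Ifit1 complex, had a difference of -0.13 (interval -0.54 to 0.29, adjusted p = 0.740). Its D257A values lay between 270 and 339, and WT mouse 2-3M, at 587, was far above the other WT mice at 275 to 323. Without WT mouse 2-3M the difference of Ifit3 was 0.06.

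Rsad2 (viperin), a radical enzyme that blocks viral replication, had the second smallest adjusted p of the 46 probe sets, after Ifitm3. Its scaled signals were 1181, 602, 1125, 828 and 1001 in D257A mice, beside 686, 745, 567, 632 and 595 in WT mice. D257A mouse 2-21M lay within the WT range and the other 4 lay above it. The log2 difference was 0.52 (standard error 0.18, interval 0.14 to 0.90, adjusted p = 0.0900), and 2 dimmer probe sets of Rsad2 gave 0.16 and 0.35. Xaf1, a pro-apoptotic partner of the inhibitor XIAP, had scaled signals of 430, 406, 583, 493 and 420 in D257A mice, beside 317, 428, 352, 366 and 270 in WT mice. WT mouse 1-13M overlapped the D257A mice and the other 4 WT mice lay below all of them. The difference of that probe set was 0.43 (standard error 0.16, adjusted p = 0.112), but a dimmer probe set of Xaf1 differed by -0.39 (adjusted p = 0.357), so the 2 probe sets point in opposite directions.

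The other effectors had positive differences that did not pass. Rtp4, a chaperone of receptors that is induced by interferon, differed by 0.44 (interval -0.03 to 0.91, adjusted p = 0.243). Samhd1, which breaks down nucleotides and limits viral DNA synthesis, differed by 0.30 (adjusted p = 0.308) by its brightest probe set, while its other 3 tested probe sets gave -0.32 to 0.25. The mono-ADP-ribosyltransferase Parp14 differed by 0.18 (adjusted p = 0.608), and Trim25, the ubiquitin ligase that acts on Ddx58, by 0.15 (adjusted p = 0.684). Without WT mouse 1-13M these were 0.30 for Parp14 (adjusted p = 0.295) and 0.31 for Trim25 (adjusted p = 0.156). For Ifi35 the brightest probe set gave 0.08 (adjusted p = 0.759) and the others -0.28 and -0.12. Usp18, which removes Isg15 from proteins, differed by 0.08 (interval -0.32 to 0.48, adjusted p = 0.841), and by 0.12 without 1-13M. The OAS-like genes Oasl1 and Oasl2 differed by 0.20 (adjusted p = 0.603) and 0.39 (adjusted p = 0.448), and Oasl2 by 0.61 without 1-13M (adjusted p = 0.122).

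The IFITM genes encode membrane proteins that block the entry of viruses, and all 3 had positive differences. Ifitm3 had scaled signals of 5150, 3482, 4728, 4321 and 4556 in D257A mice, beside 3394, 3816, 3694, 3029 and 3337 in WT mice. The 4 D257A mice other than 2-21M lay above every WT mouse. The log2 difference was 0.36 (standard error 0.12, interval 0.11 to 0.61, adjusted p = 0.0814), the smallest adjusted p among the 46 probe sets. Ifitm2 differed by 0.19 (interval -0.04 to 0.43, adjusted p = 0.317) and Ifitm1 by 0.48 (interval -0.14 to 1.09, adjusted p = 0.341). Bst2 (tetherin), which holds budding viruses at the cell surface, differed by 0.35 (interval -0.01 to 0.72, adjusted p = 0.226).

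The GTPases that interferon gamma induces strongly had a median difference of 0.02 over 5 genes, the smallest among the groups of induced genes. Igtp, a GTPase of the immunity-related family, had a scaled signal of 839 ± 103 in D257A mice, beside 822 ± 59.7 in WT mice (SD, n = 5 each), a difference of 0.02 (interval -0.25 to 0.29, adjusted p = 0.938). Iigp1 of the same family differed by 0.01 (interval -0.37 to 0.40) by one probe set and 0.32 (adjusted p = 0.409) by another, and Irgm1 by 0.20 (interval -0.07 to 0.47, adjusted p = 0.369). The guanylate-binding protein Gbp2 differed by -0.02 (interval -0.32 to 0.28, adjusted p = 0.955; -0.0030 without 1-13M) and -0.32 by its second probe set (adjusted p = 0.329), and Gbp3 by 0.31 (adjusted p = 0.425). Irgm1 and Gbp2, like Ifit1 and Rsad2, carry an ISRE core in the stretches shown.

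**Figure D3:**
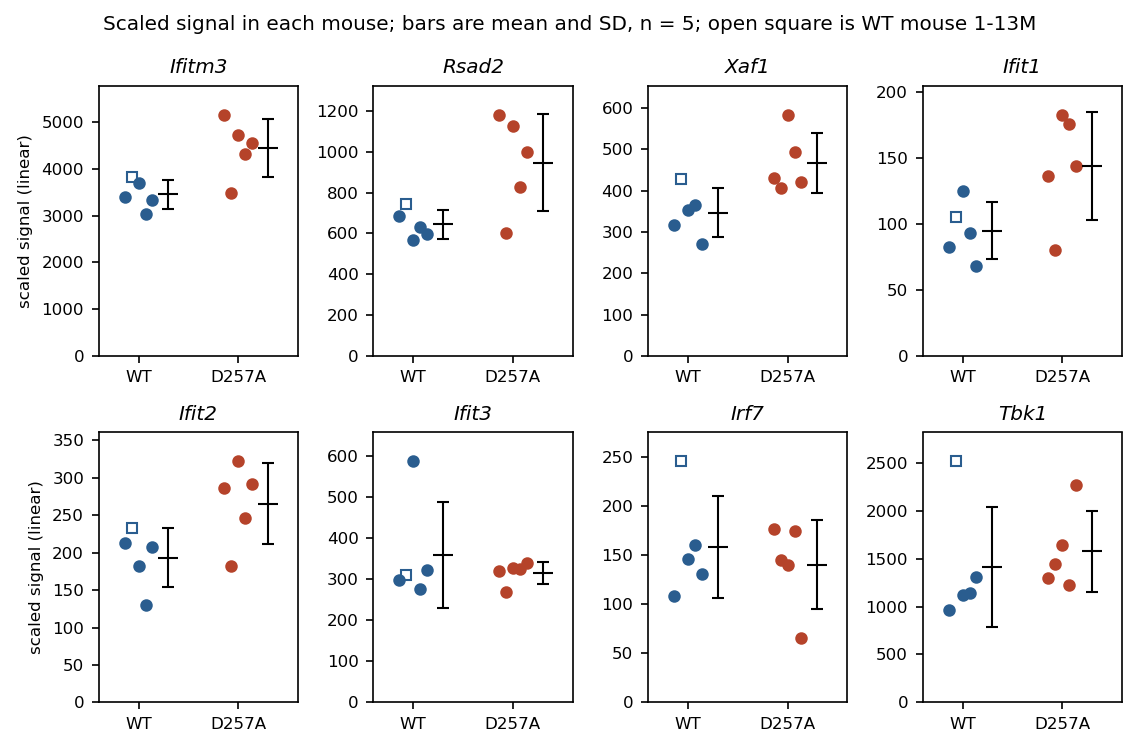
Scaled signal (linear, vertical axis from 0) of 8 genes in each of 5 WT and 5 D257A mice, where black bars give the genotype mean with its SD and an open square stands for WT mouse 1-13M. For Ifitm3, Rsad2, Ifit1 and Ifit2, 4 D257A mice lie above the WT mice and 1, mouse 2-21M, does not, and for Tbk1 and Irf7 WT mouse 1-13M is the highest of all.

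The genes that were too dim to test gave no clear level. Zbp1, the sensor of left-handed nucleic acids, had scaled signals of 76.0, 68.7, 30.7, 95.3 and 19.1 in D257A mice, beside 117, 80.3, 44.3, 79.7 and 44.2 in WT mice. The ranges overlapped over most of their length, and the log2 difference was -0.47 in the fit with no filter on brightness (adjusted p of its brightest probe set 0.708). Dhx58, Stat2, Mx1 and Mx2 also overlapped between the genotypes, with differences of -0.40, -0.43, 0.62 and 0.11 by their brightest probe sets. In that fit 0 of 63 member probe sets were called, where 2.53% of all 45037 probe sets were called. An unadjusted p under 0.05 was reached by 6 of the 63, and the share of all probe sets at that level was not taken. Dim probe sets of genes that were tested by others also went apart from them. One of Sting1 differed by 1.74 (adjusted p = 0.239), one of Rtp4 by -1.37 (adjusted p = 0.488) and one of Trim25 by -1.23 (adjusted p = 0.154). Each was opposite in sign to the brightest probe set of the gene.

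Other genes of the pathway were taken from a further list of 94, of which 82 had a probe set of their own and 63 were tested. By their brightest probe sets, 1 of 63 was called higher and 0 lower, where 7.38% of all tested probe sets were called. The gene was Ifi30, a lysosomal thiol reductase induced by interferon gamma and made by antigen-presenting cells, with scaled signals of 1684, 1940, 1371, 1710 and 1696 in D257A mice. In WT mice they were 440, 1530, 464, 455 and 416, so WT mouse 1-13M lay with the D257A mice. The log2 difference of Ifi30 was 1.56 (standard error 0.29, adjusted p = 0.00683), and 1.91 without WT mouse 1-13M. By the methods' t-test its adjusted p was 0.0552.

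None of the 5 interferon genes measured, Ifnb1, Ifng, Ifna1, Ifna2 and Ifna4, was bright enough to test. Receptors and kinases had a median difference of -0.04 over 8 genes. Within that group Jak1, the kinase of both interferon receptors, differed by -0.30 (adjusted p = 0.128) by its brightest probe set. A second probe set of Jak1 was called lower, at -0.99 (standard error 0.22, adjusted p = 0.0158), with 227 ± 46.6 in D257A mice, beside 458 ± 156 in WT mice (SD, n = 5 each). That call missed the threshold with the methods' t-test, among mice whose number starts with 2 and with that digit as a block. Every D257A mouse has a number that starts with 2, but of the WT mice only 2-3M and 2-32M do. The fit on those mice and the fit with the block therefore give the same difference. Other sensors and nucleases had a median of -0.09 over 14 genes and included Cgas, the enzyme that detects cytosolic DNA and signals to Sting1, at -0.22 (adjusted p = 0.723). Ifi204, a DNA sensor of myeloid cells, differed by 1.29 (standard error 0.44, adjusted p = 0.0902). Other induced genes had a median of 0.15, with 27 of 37 positive. By their brightest probe sets, 3 of the 63 tested genes of the further list did not overlap between genotypes, all higher in D257A mice. They were Epsti1 at 0.60 (adjusted p = 0.127), Samd9l at 0.34 (adjusted p = 0.109) and Dnase2a at 0.42 (adjusted p = 0.0964). Of all 91 tested probe sets of that list, 5 did not overlap and 3 of these were higher in D257A mice. The rest were probe sets of Jak1, at -0.99 and -0.25 (adjusted p = 0.206), with every D257A mouse below every WT mouse. Over all tested probe sets, every D257A mouse lay above every WT mouse in 3.94%. In either direction, 1737 of the 22518 did not overlap.

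Mice of the same genotype were spread widely on these genes. Relative to the mean of all 10 mice, the mean log2 signal over the 31 genes was 0.28, -0.22, 0.17, 0.14 and 0.04 in D257A mice and -0.17, 0.14, -0.06, -0.21 and -0.12 in WT mice. D257A mouse 2-21M was thus lower than every WT mouse, and WT mouse 1-13M was as high as the middle of the D257A mice. Mouse 2-21M was the lowest D257A mouse for 22 of the 31 genes and for 18 of the 22 induced genes. Mouse 1-13M was the highest WT mouse for 16 of 31. On the induced genes alone, 2-21M was at -0.18 beside 0.13 to 0.32 in the other D257A mice, and 1-13M at 0.08 beside -0.29 to -0.05 in the other WT mice.

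Of 11 tested markers of macrophages, a cell type that responds to interferon, 4 were called higher in D257A mice and 0 lower, where 7.38% of all tested probe sets were called in either direction. Fcgr3 (1.00) and Mrc1 (0.78) were called under every alternative that tested them, Cd163 (0.97) under 15 of 21 and Lyz2 (0.59) under 9 of 21. The other 7 did not pass. By their brightest probe sets, C1qb was at 0.48 (adjusted p = 0.0734), Adgre1 at 0.33, C1qc at 0.26 and Csf1r at 0.20. Cd68 was at 0.02, C1qa at 0.0073 and Fcgr1 at -0.31, while a second probe set of Fcgr1 gave 0.72 (adjusted p = 0.151). The mean log2 signal over all 12 markers was 8.77 to 9.36 in the D257A group and 8.47 to 8.71 in the WT group. These ranges did not overlap, but the mean includes Itgam, which was too dim to test. Itgam had a scaled signal of 19.9 in D257A mouse 2-21M and 8.31 in WT mouse 2-3M, the mice nearest to the gap. The lack of overlap thus rests on that dim marker. Within D257A mice the order differed only in part from that of the induced genes: 2-17M and 2-25M were the highest on both and 2-21M the lowest on both. Their part in the differences of the induced genes was not tested. Neutrophil markers were at 9.50 in D257A mouse 2-30M and between 5.94 and 7.51 in all others. B cell and NK cell markers with a probe set were all too dim to test, as were all but 1 of 6 such T cell markers. Of 4 fibroblast markers, the collagen genes Col1a1 (-2.87, adjusted p = 0.0282) and Col3a1 (-1.80, adjusted p = 0.0245) were called lower in D257A mice. Pdgfra (-0.04, adjusted p = 0.906) and Dcn (-0.08, adjusted p = 0.599) were not called. The mean over the 4 was 10.0 in WT mouse 1-13M and 11.2 to 11.7 in the other WT mice. Of the 6 muscle markers, Mb (myoglobin) was called lower (-0.35, adjusted p = 0.0353) and 0 higher. Their part in the member differences was not tested either.

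**Figure D4:**
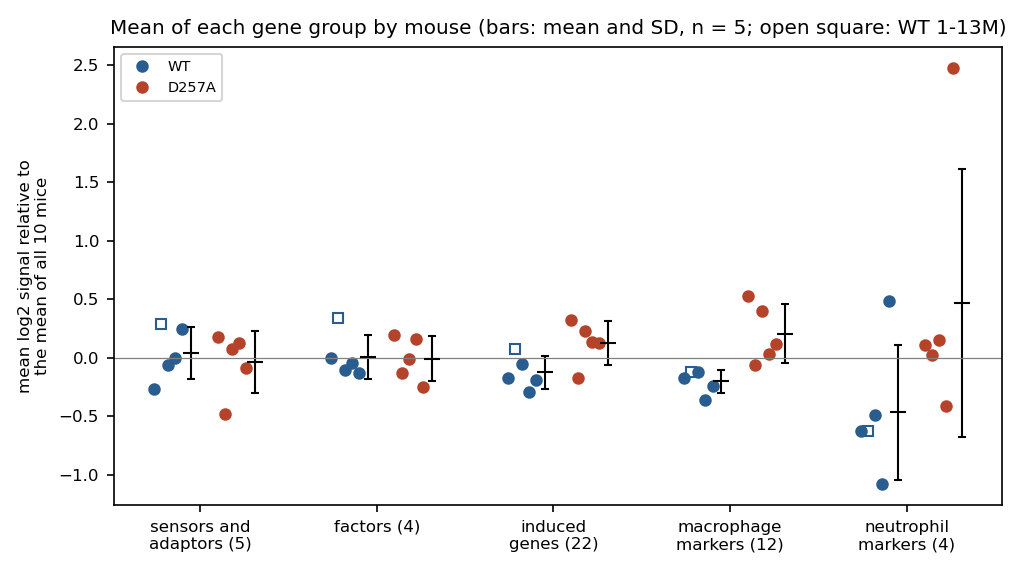
Mean log2 signal of 5 gene groups in each mouse relative to the mean of all 10 mice (vertical axis), where black bars give the genotype mean with its SD, brackets give the number of genes and an open square stands for WT mouse 1-13M. The mean over macrophage markers does not overlap between genotypes, by a narrow gap that rests on Itgam, a marker too dim to test. On induced genes 1 D257A mouse, 2-21M at -0.18, lies among the WT mice and WT mouse 1-13M lies at 0.08.

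Calls among the members depended on these mice and on the scaling. Without WT mouse 1-13M, Ifitm3 (0.39, adjusted p = 0.0315), Rsad2 (0.57, adjusted p = 0.0416) and Xaf1 (0.51, adjusted p = 0.0363) were called, 3 of 46 (6.52%), while the share called among all probe sets was 15.2%. Without D257A mouse 2-21M, Rsad2 (0.67, adjusted p = 0.0202) and Ifitm3 (0.44, adjusted p = 0.0338) were called, and the share among all was 5.87%. With each array centred on its median, which moved the median difference of all tested probe sets from -0.03 to 0.10, Ifitm3, Rsad2 and Xaf1 were called and the share among all was 8.96%. That scaling also turned the split of calls over all probe sets from 819 higher and 843 lower to 1599 higher and 418 lower, and with no further scaling the split was 356 and 856. Each of these scalings shifts all probe sets of an array by 1 constant, so the distance of 0.19 between the member median and that of all tested probe sets could not change with them. With array weights, Rtp4 was called beside those 3 and the share among all was 17.6%.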

How the data were processed

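Gene expression of gastrocnemius was measured on Affymetrix mouse genome arrays in 5 D257A and 5 WT mice. Per the labels and the study's supporting file, the deposited intensity values are probe set signals made by the authors with GCOS 1.3. How GCOS derived a signal from its probes was not given in the sources used here. A target of 500 is stated, but the deposited columns do not have it, so each array was multiplied to a mean of 500 with 2% of probe sets trimmed at each end. After leaving out 64 AFFX controls, the brighter part of the rest, 22518 probe sets whose mean log2 signal exceeded 6.26 (the median), entered the fit by limma 3.58.1 (R 4.3.3, eBayes with a variance trend) and Benjamini-Hochberg adjustment. Intervals are limma's 95% intervals, not adjusted.

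Genes were named from GEO's platform annotation, updated through RefSeq gene IDs (34754 of 34958 probe sets with 1 symbol matched). Members and lists were chosen with earlier results of these data known. Values per mouse are given for Ifit1, Irf7, Zbp1, Sting1 and Ifih1 by rule, and for other genes after their values were seen. The fit was tested on simulated data. Alternatives covered scaling, filter, offset, variance model, test, mouse number and each mouse left out. Python 3.11.15, pandas 2.3.3, NumPy 2.4.6 and matplotlib 3.10.9 were used for tables and figures. Isg15 and Ifi44, which share probe sets with other genes or have none, were not analysed here as members. The number of mice limits the precision.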

Additional observations from a re-analysis of the deposited data

Results flagged for a closer look

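In each genotype, a mouse was looked for by its gap to the nearest of the others, on log2 of the scaled signals. The gap had to take more of the range than Dixon's 95% limit for 5 samples. Of 62 sets of 5 values (31 genes in 2 genotypes), 5 held such a mouse, and chance gives about 1 in 20. Trim25 was at a scaled signal of 982 in WT mouse 1-13M, with the other WT mice between 532 and 570. Ifit3 was at 587 in WT mouse 2-3M, with the others between 275 and 323, and at 270 in D257A mouse 2-21M, with the others between 321 and 339. Irf7 was at 65.3 in D257A mouse 2-30M, where the others reached 140 to 177. Ifih1 was at 427 in WT mouse 3-18M, beside 260 to 291 in the other WT mice.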

How the results depend on the processing

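All listed alternatives were run. No paired analysis was possible because mouse numbers are not shared between the genotypes. Without 1 mouse at a time, calls over all probe sets ranged from 449 to 1648 higher and from 401 to 1780 lower (the highest without WT mouse 1-13M), members called higher from 0 to 3, and other pathway probe sets from 1 to 2 higher and from 1 to 3 lower. Calls higher over all probe sets were 356 with no further scaling, 1599 with median centring, 541 with no filter, 515 with no variance trend, 1858 with array weights, 540 by the methods' t-test and 291 with a block for the digit that starts a mouse number. Calls lower were 418 with median centring, 2110 with array weights, 493 by the methods' t-test and 271 with that block. Members called higher were 3 with median centring and 4 with array weights. Other pathway probe sets called higher were 4 with median centring, 2 with no variance trend, 6 with array weights and 0 by the methods' t-test. Those called lower were 2 with array weights and 0 among the brightest 11259 probe sets, by the methods' t-test, among mice numbered 2 and with the block.

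Signs turned only for genes whose main difference was within 0.23 of 0. With median centring, Ddx58 was at 0.050, Irf1 at 0.050, Ifit3 at 0.0053 and Gbp2 at 0.12. With no further scaling, Irf9 was at -0.042, Igtp at -0.051 and Iigp1 at -0.059. Among mice numbered 2, as with the block, Ddx58 was at 0.087, Ifi35 at -0.059, Gbp2 at 0.14 and Igtp at -0.016. Gbp2 was at 0.024 after quantile normalization and 0.038 with array weights, and Ifi35 at -0.11 as the mean of its probe sets. Without 1 mouse at a time, the range was -0.50 to 0.16 for Sting1, -0.028 to 0.21 for Ifih1, -0.32 to 0.056 for Irf7, -0.062 to 0.16 for Irf9, -0.21 to 0.064 for Ifit3, -0.015 to 0.21 for Usp18, -0.10 to 0.034 for Gbp2, -0.020 to 0.10 for Igtp and -0.11 to 0.11 for Iigp1. The cause was not tested. The number of mice and the dimness of 17 member probe sets limit what could be called.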

Other observations

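Isg15, the ubiquitin-like protein that is among the most strongly interferon-induced genes, is outside the rule, because its probe set also names Gm9706. That probe set had scaled signals of 157, 72.3, 146, 165 and 122 in D257A mice and 67.2, 118, 107, 93.0 and 50.4 in WT mice. As for Ifit1 and Rsad2, 4 D257A mice lay above every WT mouse and 2-21M did not. The log2 difference was 0.61 (standard error 0.30, interval -0.03 to 1.26, limma adjusted p = 0.235, 0.106 to 0.642 under the alternatives).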
